A study of Mus musculus with 36 samples.

Results

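Serpina1a, Serpina1b, Serpina1e, Serpina3c, Serpina3f, Serpina3g, Serpina3h, Serpina3i, Serpina3m and Serpina3n are serine protease inhibitor (serpin) genes of a single cluster on mouse chromosome 12. The 10 genes, 3 of the Serpina1 and 7 of the Serpina3 group, were taken by name from the 54115 genes of the deposited tables. They were chosen from measured values, namely their level in each cell type and the dKO against WT difference in tumours, CD8+ T cells, CAFs and iDFs, because neighbouring copies moved in opposite directions. Their levels and genotype differences are therefore given below as a description, without p-values for single members, whereas the serum and sex comparisons, which the choice did not use, were tested.

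The study asked how loss of macroH2A, a histone variant, changes melanoma and its surrounding cells, using 36 RNA-seq libraries. dKO mice lacked H2afy and H2afy2 constitutively, in every cell, and were compared with WT mice. Both genotypes carried the same melanoma alleles, among them Braf CA and Tyr-CreERT2, in which Cre is expressed from a tyrosinase promoter in melanocytes, and tumours were started with topical 4-hydroxytamoxifen and taken at 50 days post induction. There were 6 dKO and 6 WT bulk tumours, 4 dKO and 4 WT libraries of sorted tumour-infiltrating CD8+ T cells (mice 9 weeks old at induction), 4 dKO and 4 WT libraries of cancer-associated fibroblasts (CAFs) sorted on CD140a, the product of Pdgfra (10 weeks at induction), and 2 libraries each of dKO and WT immortalized dermal fibroblasts (iDFs) at 0 and 30 min of serum after starvation. The iDFs came from skin without tumours, all were labelled male, and the cell line and the genotype cannot be told apart in them. Age at induction of the mice that gave the bulk tumours was not given in the sources used here. The mice had a mixed background, mostly 129S with B6 and FVB. The strain origin of the Serpina cluster in each mouse was not given in the sources used here, and its part in the values was not tested.

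Serpins inhibit proteases by a suicide mechanism: the protease cleaves an exposed reactive loop and is trapped in a covalent complex. Serpina1 encodes alpha-1 antitrypsin, an inhibitor of neutrophil elastase made mainly by the liver, and human SERPINA3 encodes alpha-1 antichymotrypsin, an acute-phase protein that inhibits cathepsin G. Both genes have been copied several times in the mouse, so that near-identical neighbours differ in reactive loop, tissue and response to cytokines. Serpina3g, also called Spi2A, inhibits cysteine cathepsins that leak from lysosomes and has been studied in memory CD8+ T cells. Serpina3n is a secreted acute-phase protein that inhibits granzyme B in the mouse, and Serpina3c is known as a kallikrein-binding protein.

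On the GRCm38 build the members lie on chromosome 12 in the order Serpina1b (103728156 to 103830373, minus strand), Serpina1a (103853589 to 103863562, minus), Serpina1e (103946931 to 103958975, minus), Serpina3c (104146382 to 104153870, minus), Serpina3f (104214544 to 104221129, plus), Serpina3g (104236245 to 104241939, plus), Serpina3h (104247905 to 104253669, plus), Serpina3i (104263122 to 104269372, plus), Serpina3m (104338486 to 104394257, plus) and Serpina3n (104406729 to 104414329, plus). Serpina3f, Serpina3g, Serpina3h and Serpina3i are direct neighbours, with 15115, 5965 and 9452 bases between them. Gencode lists Serpina3h as a transcribed unprocessed pseudogene and the other 9 as protein coding. The annotated span of Serpina1b covers Serpina1d, and that of Serpina3m overlaps Serpina3k, so reads of these pairs may be mixed.

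The copies are close in sequence. Aligned over their longest transcripts, Serpina1b and Serpina1e were 96.3% identical and Serpina1a and Serpina1b 93.9%. Serpina3h was 92.3% identical to Serpina3i, 91.5% to Serpina3g and 91.2% to Serpina3f, while Serpina3n was between 81.7% and 85.3% identical to the other Serpina3 members. Of all 31-base words in Serpina1a, 65.2% also occurred in another gene, against 39.8% for Serpina3h, 28.4% for Serpina3g, 27.3% for Serpina3i and 21.6% for Serpina3n. The authors' counting divides reads in shared words among genes by estimation, so values of single copies are less certain than sums over close copies. Such sums are given beside them for CAFs and CD8+ T cells, and not for tumours and iDFs.

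The upstream sequences are shown because Serpina3g and Serpina3i, whose values moved in opposite directions in CAFs, begin from closely related DNA. RefSeq promoter windows (250 bases before to 50 bases after each start, GRCm38.p6) were found for 8 of the 10 members, and Serpina3h and Serpina3m were not among them. A STAT-type motif, TTCNNNGAA on either strand, occurred in 8.3% of all 32851 promoter windows and in those of Serpina3f, Serpina3g and Serpina3i. At the aligned position Serpina3c and Serpina3n carry TTACCAGAA, which is not a match. In the 139-base stretches below, capitals mark this position.
Serpina3g, chr12:104236054-104236192, plus strand: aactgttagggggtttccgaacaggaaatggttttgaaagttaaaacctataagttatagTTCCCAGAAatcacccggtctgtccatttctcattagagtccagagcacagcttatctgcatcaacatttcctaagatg
Serpina3i, chr12:104262960-104263098, plus strand: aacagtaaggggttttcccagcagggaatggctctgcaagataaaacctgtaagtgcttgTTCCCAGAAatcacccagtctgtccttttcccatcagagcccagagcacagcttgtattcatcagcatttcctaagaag
Serpina3f, chr12:104214363-104214501, plus strand: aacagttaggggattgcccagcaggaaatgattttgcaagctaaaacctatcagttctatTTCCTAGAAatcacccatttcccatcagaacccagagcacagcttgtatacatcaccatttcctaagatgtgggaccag
Serpina3n, chr12:104406525-104406663, plus strand: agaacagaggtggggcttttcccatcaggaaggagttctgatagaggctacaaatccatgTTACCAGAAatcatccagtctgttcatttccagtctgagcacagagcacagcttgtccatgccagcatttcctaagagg
Serpina3c, chr12:104153914-104154052, minus strand: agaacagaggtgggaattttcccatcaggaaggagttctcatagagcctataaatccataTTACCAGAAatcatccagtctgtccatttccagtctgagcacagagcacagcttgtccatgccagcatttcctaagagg

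The Serpina1 windows carried an HNF1-type motif, searched on either strand as 12 letters with any base allowed at 3 of them, which occurred in 0.143% of all promoter windows. HNF1 is a transcription factor of liver. The matching letters, the same in all 3 copies, stand in capitals in the 102-base stretches, shown because the copies are almost the same there and their values also moved together.
Serpina1a, chr12:103863584-103863685, minus strand: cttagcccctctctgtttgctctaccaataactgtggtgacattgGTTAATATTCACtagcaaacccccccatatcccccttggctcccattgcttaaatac
Serpina1b, chr12:103738159-103738260, minus strand: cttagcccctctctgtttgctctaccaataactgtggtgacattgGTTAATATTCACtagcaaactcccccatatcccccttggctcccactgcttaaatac
Serpina1e, chr12:103956919-103957020, minus strand: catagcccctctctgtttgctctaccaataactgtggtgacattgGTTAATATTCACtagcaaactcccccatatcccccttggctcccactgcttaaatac
An NF-kB-type motif of 10 letters stood in 7 of the 9 windows of these 8 members and in 50.8% of all windows. An IRF-type motif of 10 letters stood in 0 of the 9 windows and in 3.44% of all. A match describes letters only.

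Library totals were 20164075 to 29135123 estimated reads in CAFs, 17526681 to 28690034 in CD8+ T cells, 22560402 to 30960463 in iDFs and 22245177 to 85432438 in tumours. The deleted H2afy was at 48.7 to 55.3 CPM (counts scaled to library size) in dKO CAFs and 51.8 to 60.7 CPM in WT CAFs, and H2afy2 at 10.7 to 14.5 CPM in dKO and 17.1 to 24.9 CPM in WT CAFs. In tumours H2afy was at 61.2 to 82.4 CPM in dKO and 90.5 to 122 CPM in WT. The deleted exons are not named in the labels or methods, and gene sums therefore do not check the labels. The CAF marker list summed to 54330 to 70540 TPM (transcript abundance scaled by length and library) in dKO CAFs and 46640 to 57710 TPM in WT CAFs, with all 8 markers detected, and the T cell list to 7262 to 8279 TPM in dKO and 7343 to 12430 TPM in WT CD8+ T cells. Among the CD8+ T cell libraries, dKO replicate 3 and WT replicate 4 had the highest macrophage marker sums of their genotypes (642 and 430 TPM), and dKO replicate 3 also had a neutrophil marker sum of 136 TPM, against at most 6.92 TPM in the WT libraries. WT replicate 1 had a melanocyte marker sum of 187 TPM, against 4.94 to 10.5 TPM in the other CD8+ T cell libraries.

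Serpina3n led in CAFs and bulk tumours, and Serpina3g in dKO CD8+ T cells and iDFs. In WT CD8+ T cells Serpina3g led by its mean only. TPM is used to compare genes, since it allows for transcript length. Serpina3n stood far above the other members, with 468 ± 327 TPM in dKO CAFs and 469 ± 223 TPM in WT CAFs (SD, n = 4 each), and 434 ± 215 TPM in dKO tumours and 334 ± 144 TPM in WT tumours (SD, n = 6 each). It made up 85.8% to 93.0% of all Serpina3 reads in dKO CAFs and 87.0% to 92.6% in WT CAFs. In CD8+ T cells the member with the highest mean was Serpina3g, at 115 ± 43.4 TPM in dKO cells and 24.0 ± 13.9 TPM in WT cells (SD, n = 4 each). It was followed by Serpina3f at 8.20 ± 6.59 TPM in dKO and 20.0 ± 14.3 TPM in WT cells. In WT cells the ranges of these 2 members overlapped. Serpina3f was the higher in WT replicates 3 and 4, at 36.03 and 28.1 TPM against 24.5 and 20.0 TPM for Serpina3g. In WT replicates 1 and 2 Serpina3g was the higher. In iDFs Serpina3g had group means of 7.72 to 10.9 TPM and Serpina3n of 3.73 to 7.33 TPM, Serpina3h was at or below 2.32 TPM, Serpina3c, Serpina3f, Serpina3i and Serpina3m were at or below 0.642 TPM, and the 3 Serpina1 members were at 0 in all 8 libraries. Fewer cells of a type and less RNA per cell cannot be told apart in these bulk measurements.

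In WT CAFs the order below Serpina3n was Serpina3h (24.6 ± 1.29 TPM), Serpina3m (16.0 ± 7.98 TPM), Serpina1b (15.4 ± 6.11 TPM), Serpina3i (13.7 ± 2.25 TPM), Serpina1a (12.9 ± 5.68 TPM), Serpina3f (9.42 ± 1.43 TPM), Serpina3g (2.55 ± 0.361 TPM), Serpina1e (1.42 ± 0.656 TPM) and Serpina3c (0.807 ± 0.265 TPM, SD, n = 4 each). Neighbours from Serpina3h to Serpina3f in this order had overlapping ranges, as had those from Serpina3g to Serpina3c, and Serpina3g lay below Serpina3f in all 4 libraries. In dKO CAFs Serpina3h (2.48 ± 1.24 TPM) and Serpina3i (1.28 ± 0.426 TPM) were the members at the bottom together with Serpina3c (1.85 ± 0.595 TPM). By TPM, Serpina1b (41.3 ± 18.7 TPM) and Serpina1a (31.04 ± 15.4 TPM) came next to Serpina3n in dKO CAFs, and their ranges overlapped. The place of Serpina1a depends on the transcript its reads were assigned to, ENSMUST00000124717 for 95.0% in dKO and 93.4% in WT CAFs. In CPM its mean in dKO CAFs was 6.55, below Serpina1b (29.5), Serpina3m (15.8), Serpina3f (14.5) and Serpina3g (10.9).

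**Figure D1:**
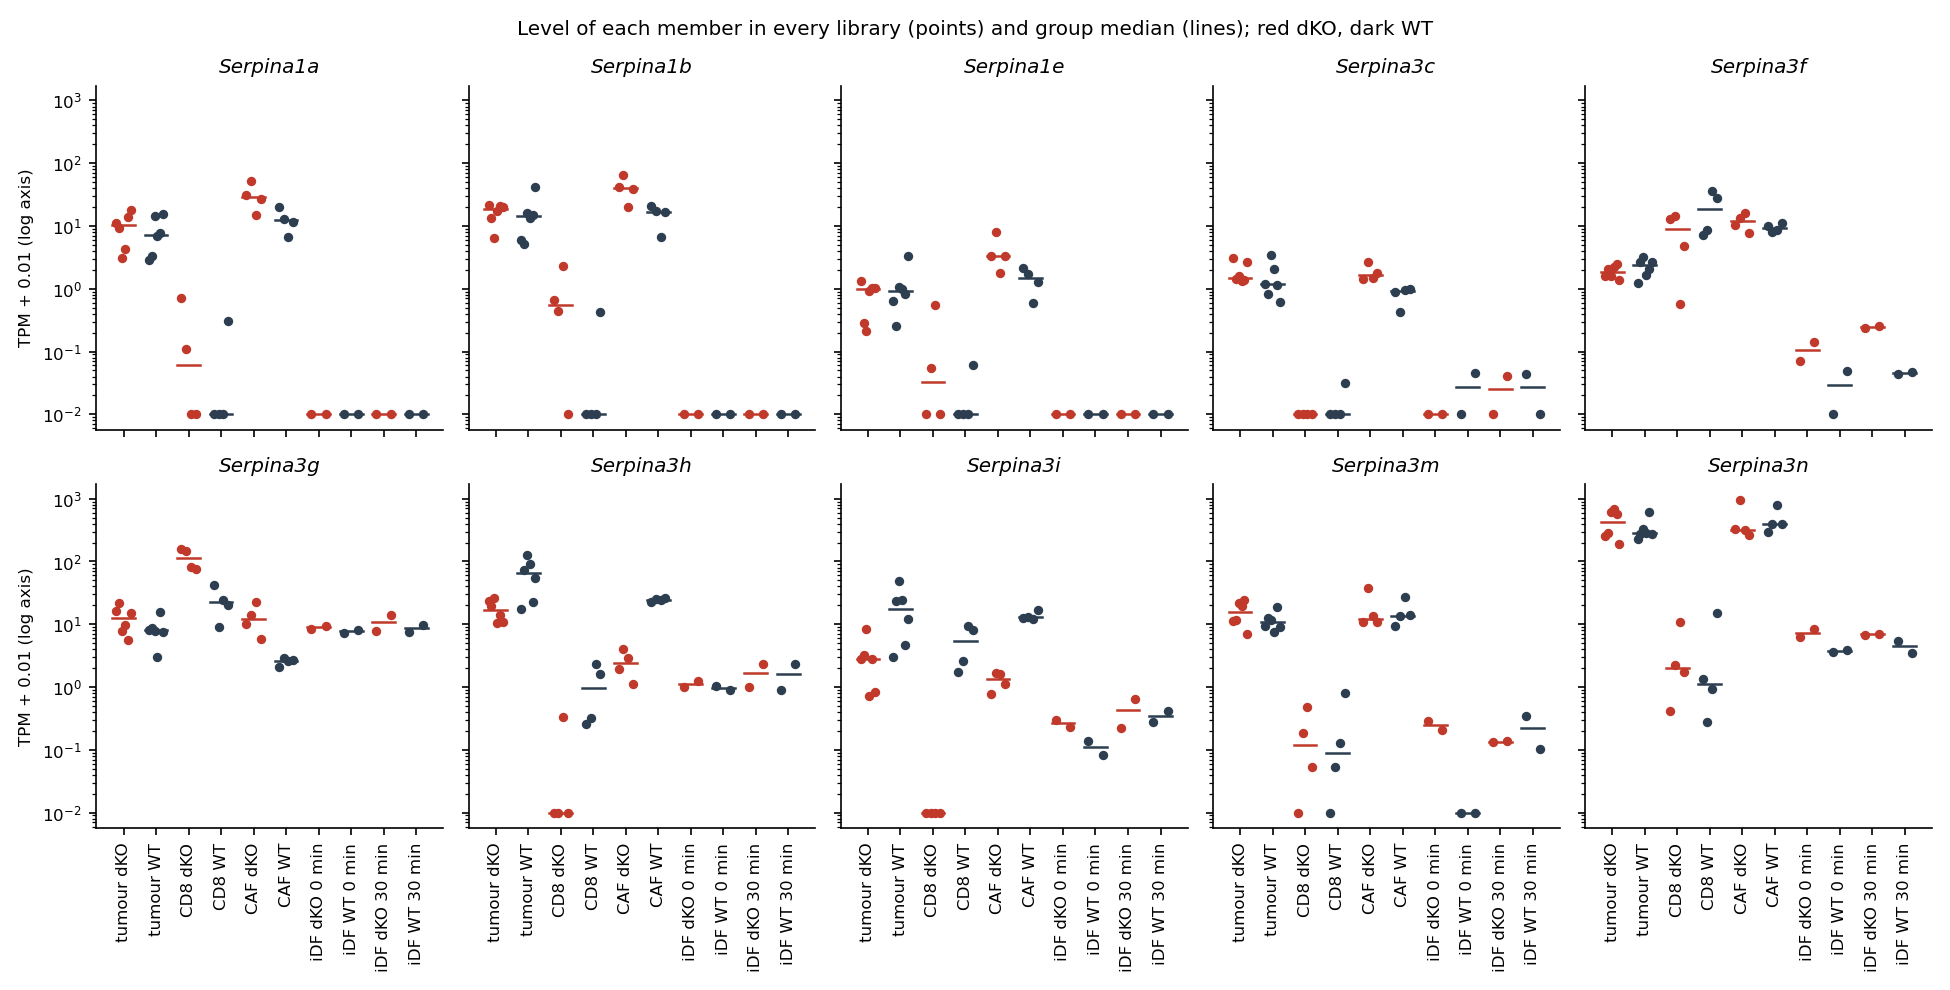
TPM of each of the 10 members in every library on a log axis, by group, with dKO beside WT for each cell type. Serpina3n is highest in tumours and CAFs (268.5 to 956.8 TPM in dKO CAFs, 291.2 to 794.2 TPM in WT CAFs). Serpina3g is highest in dKO CD8+ T cells (75.2 to 156 TPM). In WT CD8+ T cells it is at 9.19 to 42.5 TPM and overlaps Serpina3f (7.24 to 36.03 TPM). The Serpina1 members are at 0 in iDFs.

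Serpina3h and Serpina3i, the neighbouring pair without an assigned role here, were lower in dKO CAFs. Serpina3h was at 1.92, 3.97, 2.91 and 1.10 TPM in dKO CAFs and at 23.0, 25.1, 24.3 and 26.1 TPM in WT CAFs. Serpina3i was at 0.778, 1.69, 1.57 and 1.09 TPM in dKO CAFs and at 12.4, 13.3, 12.1 and 17.0 TPM in WT CAFs. The groups did not overlap for either gene, and the WT libraries lay close together. The log2 fold change, dKO over WT, was -3.29 (SE 0.32), 9.75-fold lower, for Serpina3h and -2.66 (SE 0.25), 6.31-fold lower, for Serpina3i.

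Serpina3g, the next gene upstream of Serpina3h, had the opposite direction in the same cells. It was at 10.2, 14.0, 23.0 and 5.77 TPM in dKO CAFs and at 2.05, 2.89, 2.57 and 2.69 TPM in WT CAFs. All 4 dKO libraries were above all 4 WT libraries, with a log2 fold change of 2.20 (SE 0.43), 4.58-fold higher, and the dKO libraries differed among themselves more than the WT libraries did. Serpina3f, on the other side of Serpina3g, was at 10.3, 13.5, 15.9 and 7.77 TPM in dKO and at 9.90, 7.98, 8.59 and 11.2 TPM in WT CAFs, so that the groups overlapped (log2 fold change 0.44, SE 0.23).

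The 3 alpha-1 antitrypsin genes had higher means in dKO CAFs. Serpina1b was at 41.6, 65.3, 19.8 and 38.3 TPM in dKO CAFs and at 21.0, 17.0, 6.67 and 16.7 TPM in WT CAFs. Serpina1a was at 31.2, 51.7, 14.8 and 26.5 TPM in dKO CAFs and at 20.4, 13.2, 6.58 and 11.7 TPM in WT CAFs. For both genes dKO replicate 3 lay within the WT range, so the groups overlapped, and that library and WT replicate 3, both from female mice, were the lowest of their genotypes. Log2 fold changes were 1.44 (SE 0.32) for Serpina1b, 1.28 (SE 0.30) for Serpina1a and 1.57 (SE 0.38) for Serpina1e, the last at 1.77 to 8.14 TPM in dKO and 0.581 to 2.11 TPM in WT CAFs. Counts summed over the 3 genes, which do not depend on how reads are divided among them, gave 1.42 (SE 0.31). Hepatocyte markers, those of the main source of alpha-1 antitrypsin in the body, summed to 2.71 to 4.06 TPM in dKO CAFs and 2.84 to 8.21 TPM in WT CAFs, with Apoa2, Apob and Fabp1 at 0.

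Of the remaining members, Serpina3m and Serpina3n had overlapping groups in CAFs and Serpina3c did not. Serpina3c was low, at 1.41, 2.71, 1.49 and 1.77 TPM in dKO and 0.883, 0.413, 0.953 and 0.977 TPM in WT CAFs, with no overlap and a log2 fold change of 1.21 (SE 0.35). Serpina3n was at 324, 957, 321 and 268.5 TPM in dKO and 291, 399, 794 and 390 TPM in WT CAFs, with a log2 fold change of -0.04 (SE 0.53). Serpina3m, a neighbour of Serpina3n, was at 10.9, 37.1, 13.3 and 10.8 TPM in dKO and 9.38, 13.3, 27.6 and 13.8 TPM in WT CAFs, with a log2 fold change of 0.17 (SE 0.55). Serpina3m and Serpina3n were highest in the same library of each genotype, dKO replicate 2 and WT replicate 3. The part of these libraries in the size of the errors was not tested.

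By edgeR at an adjusted p of 0.05 and a log2 fold change beyond 0.75, 4 members were called higher in dKO CAFs (Serpina1a, Serpina1b, Serpina1e and Serpina3g), where 1.45% of all 15786 genes tested were, and 2 were called lower (Serpina3h and Serpina3i), where 4.03% were. Groups did not overlap for 2 members that were higher, Serpina3c and Serpina3g, and 2 that were lower, against 7.09% and 6.86% of all genes. Since the members were chosen on this comparison, nothing is read from these counts. The same holds for the calls with a CAF library left out, where Serpina3h and Serpina3i were called each time. Leaving out WT replicate 1, 2 or 3 left only these 2, WT replicate 4 these and Serpina1b, and dKO replicate 2 or 4 these and Serpina3g. Without sex in the fit, 3 members were called, Serpina3g, Serpina3h and Serpina3i.

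**Figure D2:**
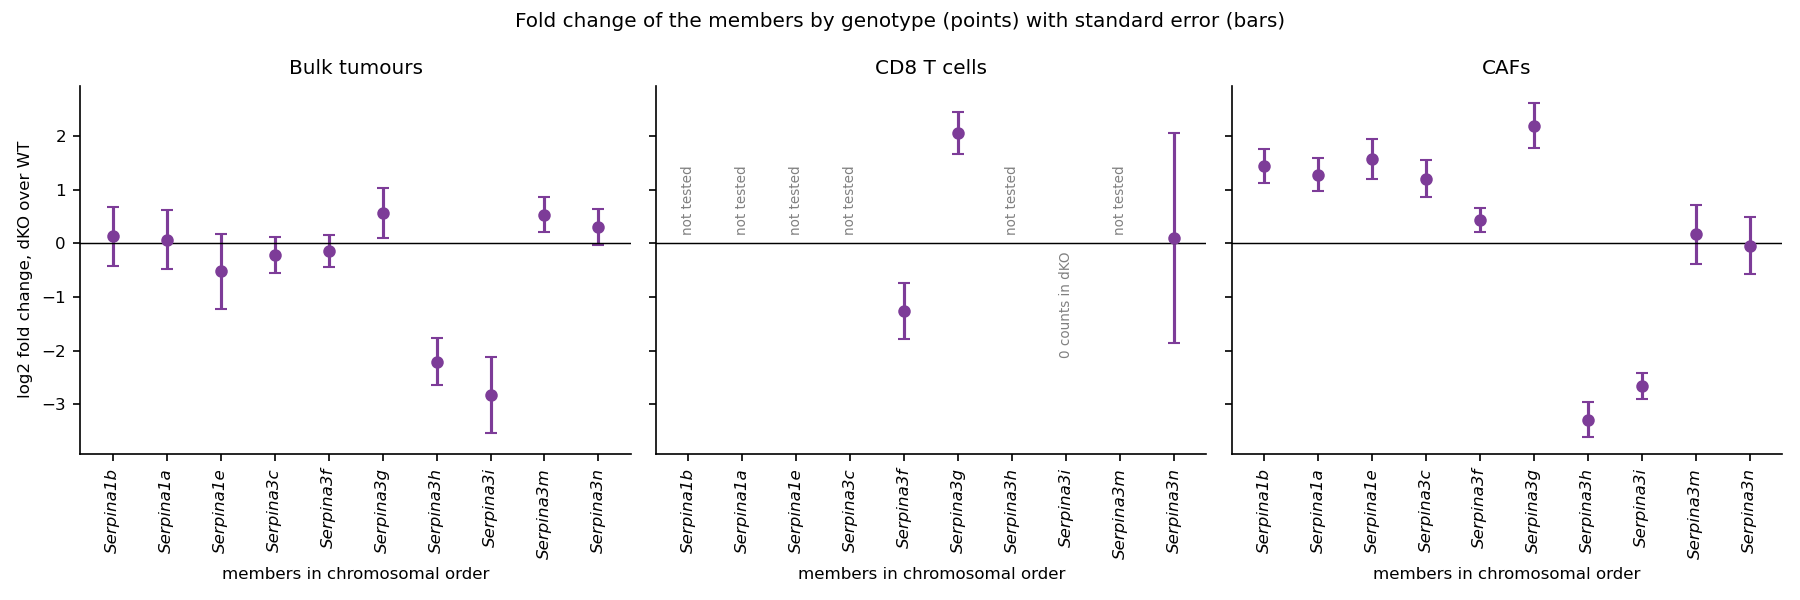
Log2 fold change of dKO over WT (points) with its standard error (bars) for the members in chromosomal order in bulk tumours, CD8+ T cells and CAFs. In CAFs Serpina3g is at 2.20 and its neighbours Serpina3h and Serpina3i are at -3.29 and -2.66. In CD8+ T cells 6 members had too few reads to test, and Serpina3i had 0 counts in dKO cells, so no point is drawn.

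Counts were also summed over close copies, which removes the division of reads among the copies summed. A sum follows its most abundant copies, so it cannot tell shared reads from opposite changes of single copies. Summed over Serpina3h and Serpina3i the log2 fold change in CAFs was -3.04 (SE 0.28). Adding Serpina3g gave -0.85 (SE 0.36), adding Serpina3f as well gave -0.33 (SE 0.28), and the sum over all 7 Serpina3 members, most of it Serpina3n, gave -0.05 (SE 0.51). TPM summed over all Serpina3 paralogues was 526 ± 352 in dKO CAFs and 548 ± 234 in WT CAFs (SD, n = 4 each). The direction of Serpina3g therefore holds for that copy and not for any of these sums.

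Within a library, the share of Serpina3g among reads of Serpina3g, Serpina3h and Serpina3i does not depend on scaling between libraries. It was 80.5%, 74.3%, 85.0% and 75.5% in the dKO CAFs and 8.50%, 9.72%, 10.6% and 9.81% in the WT CAFs. The total reads of the 3 genes were 255, 430, 548 and 167 in the dKO CAFs and 580, 541, 671 and 707 in the WT CAFs. The libraries of each genotype thus formed a narrow band, with a different leading gene in each. In CD8+ T cells it was 99.7% to 100% in dKO and 84.8% to 98.1% in WT cells, again without overlap but with Serpina3g leading in both. In iDFs the share was 83.0% to 89.3% in all 8 libraries, with no separation by genotype. In bulk tumours it ran from 26.4% through a median of 50.1% to 62.3% in dKO and from 4.10% through 13.8% to 45.9% in WT, and the groups overlapped.

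**Figure D3:**
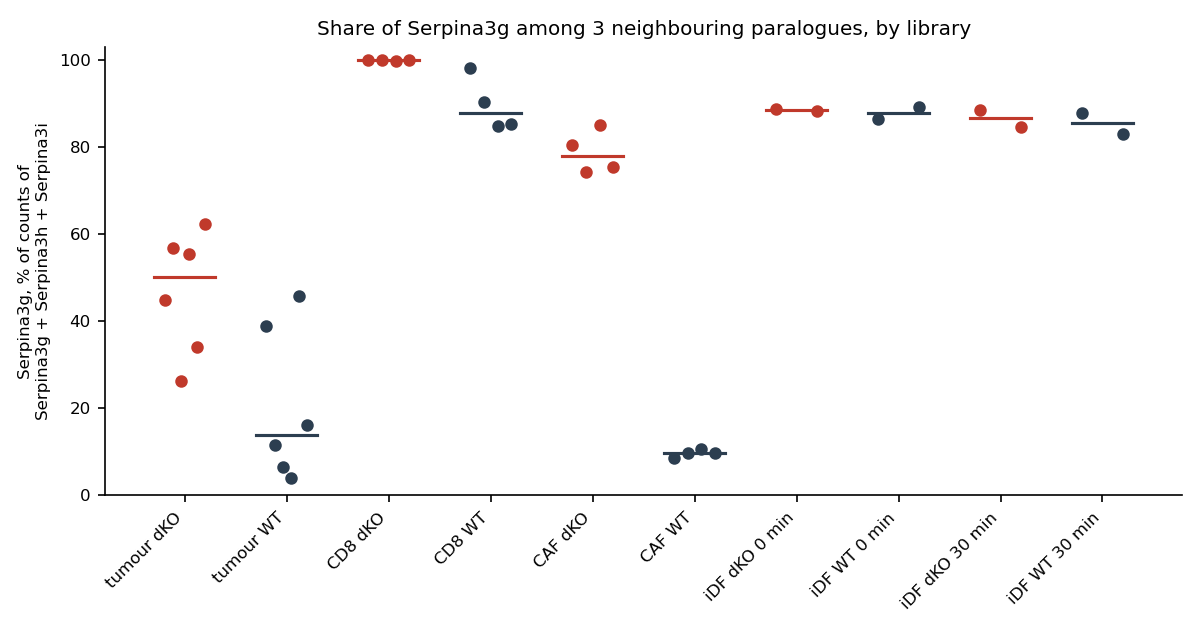
Share of reads, in percent, that Serpina3g takes among Serpina3g, Serpina3h and Serpina3i in each library, by group, with dKO beside WT. CAFs separate (74.3% to 85.0% in dKO, 8.50% to 10.6% in WT), as do CD8+ T cells by less (99.7% to 100% in dKO, 84.8% to 98.1% in WT), while tumours overlap and iDFs lie at 83.0% to 89.3% in both genotypes.

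In CD8+ T cells 4 members had enough reads to test. Serpina3g, the cathepsin inhibitor, was at 156, 149, 80.4 and 75.2 TPM in dKO cells and at 42.5, 9.19, 24.5 and 20.0 TPM in WT cells. The groups did not overlap, and the log2 fold change was 2.06 (SE 0.39), 4.17-fold higher. The sum over Serpina3g, Serpina3h and Serpina3i gave 1.92 (SE 0.36) and that over all 7 Serpina3 members 1.10 (SE 0.24), so the direction in T cells was the same for the sums.

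Serpina3i had 0 reads in all 4 dKO CD8+ T cell libraries and 13.8, 19.5, 107 and 88.0 reads in the WT libraries. Set against the 3 reads over the whole group that a count of 0 allows, 0.0348 CPM, the WT mean of 2.33 CPM was 66.9-fold higher. Single WT libraries ran from 0.708 to 4.04 CPM. The ratio covers counting error only. It leaves out the spread between mice and the estimated division of reads among copies, so it is no firm lower bound. Of 228 Serpina3i reads in WT CD8+ T cells, 97.4% were assigned to the short transcript ENSMUST00000109960, which took 34.8% of the gene's reads in WT CAFs. Serpina3h, too low to test in T cells, had 0, 0, 5.2 and 0 reads in dKO and 4.3, 5.1, 56.1 and 36.5 reads in WT cells. In both genes the 2 male WT libraries held most of the reads.

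Serpina3f was at 13.1, 14.3, 0.561 and 4.87 TPM in dKO CD8+ T cells and at 7.24, 8.52, 36.03 and 28.1 TPM in WT cells, with overlapping groups and a log2 fold change of -1.26 (SE 0.52). It took 0.894% to 12.2% of all Serpina3 reads in dKO cells and 20.0% to 58.2% in WT cells, while Serpina3g took 82.4% to 88.6% in dKO cells and 26.4% to 74.8% in WT cells. Serpina3n was at 0.406, 2.21, 10.8 and 1.75 TPM in dKO and 1.32, 0.271, 0.921 and 15.2 TPM in WT cells (log2 fold change 0.09, SE 1.96). Its highest values were in dKO replicate 3 and WT replicate 4, the libraries with the highest macrophage marker sums. Without both libraries, left out after seeing the data, the log2 fold change was 0.84 for Serpina3n, 2.01 for Serpina3g and -0.92 for Serpina3f. No member was called in CD8+ T cells by edgeR, where 0.495% of 14944 genes were, while DESeq2 called 2. An unadjusted p below 0.05 was found for 3 of the 4 tested and for 1531 of the 14944 genes. Since the members were chosen on this comparison, nothing is read from these counts. Groups did not overlap for 1 member that was higher and 1 that was lower, against 4.12% and 2.96% of all genes. Without WT replicate 1, Serpina3g was called.

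Serpina3f differed little in its sum in CAFs but was assigned to different transcripts in the 2 genotypes. Its 3 transcripts have the same coding sequence and differ in their 5′ exons. In dKO CAFs 1440 of 1507 reads were assigned to ENSMUST00000121337, 87.8% to 100% in each library, and in WT CAFs 0 of 1105 reads were. The WT CAF reads were divided between ENSMUST00000101080 (628 reads) and ENSMUST00000167049 (477 reads). CD8+ T cells gave a like pattern, with 84.8% of 1374 reads on ENSMUST00000121337 in dKO cells, 78.5% or more in each library, and 5.32% of 3283 reads in WT cells, all from replicate 1. That WT library also had the highest Serpina3g level and share (98.1%) among WT T cells. It was also the CD8+ T cell library with the high melanocyte marker sum (187 TPM), whose part in these values was not tested. In tumours the transcript took 35.0% of the reads in dKO and 29.2% in WT, was at 0 in 2 dKO and 3 WT libraries, and the groups overlapped.

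**Figure D4:**
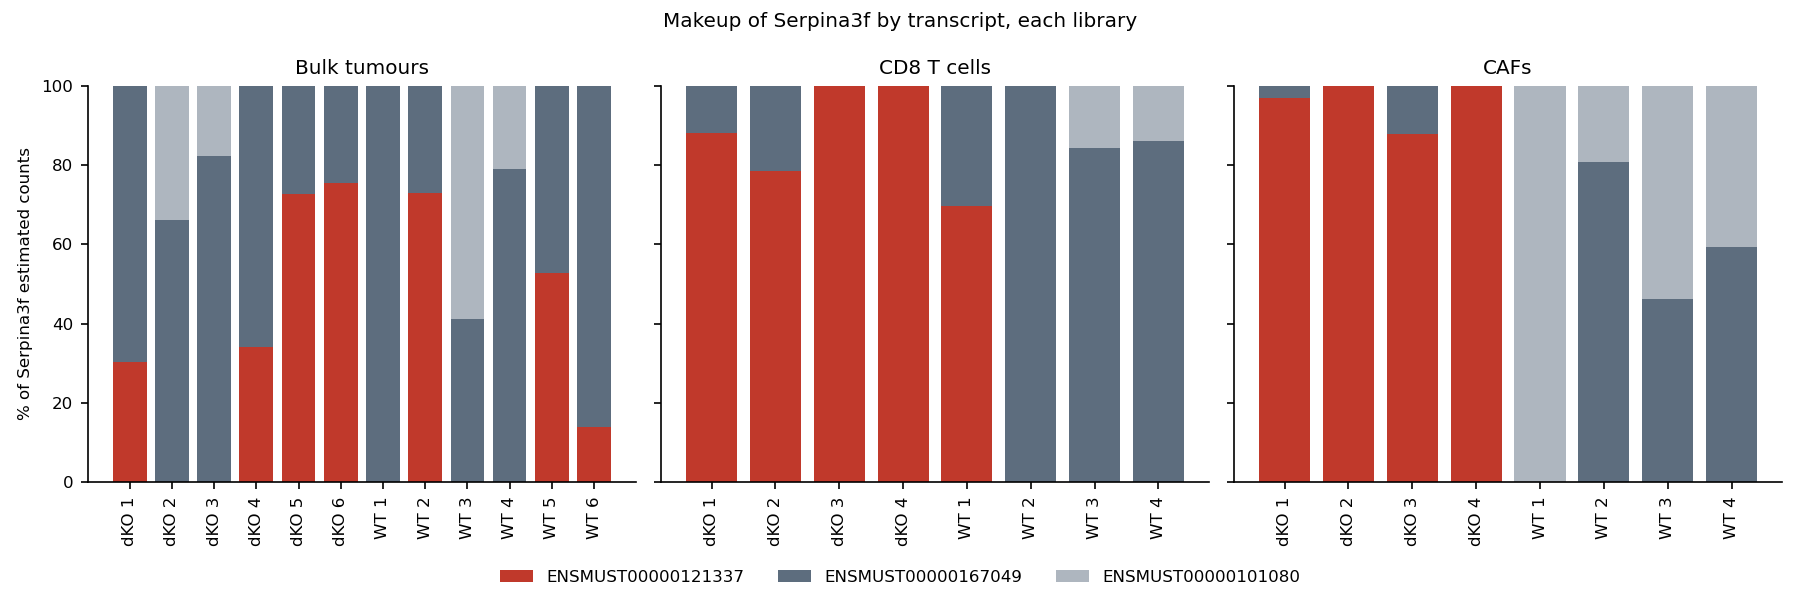
Percent of Serpina3f reads assigned to each of its 3 transcripts in each library of CAFs, CD8+ T cells and tumours, dKO beside WT. ENSMUST00000121337 takes 87.8% to 100% in dKO CAFs and 0% in WT CAFs, and in WT CD8+ T cells it appears in replicate 1 only, at 69.8%.

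In bulk tumours the pair Serpina3h and Serpina3i was again lower in dKO on average, with overlapping groups. Serpina3h had a lowest, median and highest level of 10.5, 17.0 and 25.9 TPM in dKO tumours and 17.5, 64.6 and 125 TPM in WT tumours (log2 fold change -2.20, SE 0.44). Serpina3i had 0.708, 2.81 and 8.41 TPM in dKO tumours and 2.96, 17.8 and 49.3 TPM in WT tumours (-2.83, SE 0.71). The WT tumours spread widely, and WT replicates 1 and 5 lay inside the dKO range for both genes. In WT tumours Serpina3h was above its level in WT CAFs in 4 of 6 libraries.

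The 3 tumour batches of the labels each held 2 dKO and 2 WT tumours. The within-batch log2 ratio of dKO over WT was -1.62, -2.73 and -0.98 for Serpina3h and -2.46, -3.61 and -0.52 for Serpina3i in batches 1, 2 and 3, and so of 1 sign. For Serpina3g it was 0.59, 0.96 and -0.35, and for Serpina1b 0.93, 0.53 and -1.09, so of mixed sign. Serpina3g had a lowest, median and highest level of 5.65, 12.4 and 21.6 TPM in dKO tumours and 3.04, 7.97 and 15.8 TPM in WT tumours (log2 fold change 0.57, SE 0.47). Serpina1b was at 6.40, 18.7 and 21.5 TPM in dKO tumours and 5.16, 14.3 and 41.6 TPM in WT tumours (0.13, SE 0.55), the highest value being WT replicate 6. Sexes were unequal, with 1 female among the dKO tumours and 4 among the WT tumours, and sex was a term of the fit. The within-batch ratios had no sex term. In batch 3 both dKO tumours were male and both WT tumours female, so genotype and sex cannot be told apart there. By edgeR 0 members were called, where 0.0442% of 18097 genes were, and DESeq2 called Serpina3h and Serpina3i. An unadjusted p below 0.05 was found for 2 members and for 1360 of the 18097 genes. This comparison too was used to choose the members, so nothing is read from the counts. The groups overlapped for all 10 members, where 0.309% of all genes did not overlap and were higher and 0.365% lower.

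**Figure D5:**
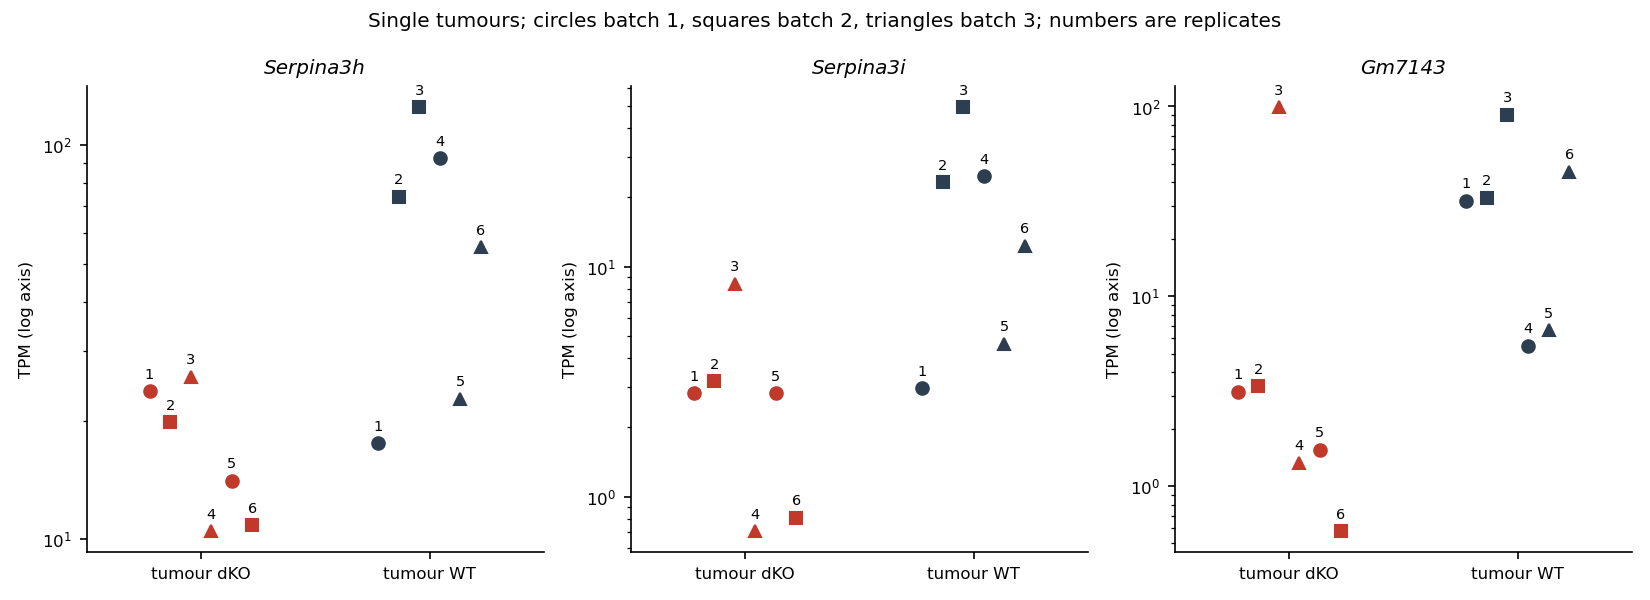
TPM of Serpina3h, Serpina3i and the pseudogene Gm7143, described below, in the 12 bulk tumours on a log axis, with dKO left of WT. Marker shape gives the batch and the number at each point the replicate. Serpina3h is at 10.5 to 25.9 TPM in dKO and 17.5 to 125 TPM in WT. Batch 3, where the dKO tumours were male and the WT tumours female, shows the least difference for Serpina3h and Serpina3i.

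Among genes within 1 Mb of the cluster that are no serpins, 22 were tested in CAFs and 1 was called, a pseudogene with the direction of Serpina3h and Serpina3i. Gm7143, a processed pseudogene at 102866631 to 102867489 on the minus strand, 747 kb from the outermost Serpina gene, was at 2.81 to 3.96 TPM in dKO CAFs and 32.0 to 42.3 TPM in WT CAFs (log2 fold change -3.41, SE 0.14, edgeR adjusted p = 1.86e-05). In tumours it was at 3.14, 3.36, 99.1, 1.33, 1.56 and 0.580 TPM in dKO and 31.9, 33.0, 90.4, 5.50, 6.62 and 45.2 TPM in WT. As a processed pseudogene it may share reads with its parent gene. The dKO tumour that stood apart for Gm7143, replicate 3, also had the highest Serpina3h and Serpina3i of the dKO tumours. The WT tumours were mixed. WT replicate 3 was highest for Gm7143, Serpina3h and Serpina3i alike. WT replicate 4 had the lowest Gm7143 (5.50 TPM) but Serpina3h at 92.7 TPM and Serpina3i at 24.8 TPM. WT replicate 1 had Gm7143 at 31.9 TPM but the lowest Serpina3h (17.5 TPM) and Serpina3i (2.96 TPM). In iDFs Gm7143 was at 102.5 TPM or more in both genotypes, and Serpina3h overlapped between genotypes there at both times. In iDFs the neighbour called was Ifi27l2a, an interferon-induced gene 171 kb from the cluster, at 67.2 to 112 TPM in dKO and 194 to 245 TPM in WT at 0 min (log2 fold change -1.23, SE 0.25, edgeR adjusted p = 0.0138).

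In iDFs 3 members had enough reads to test. Serpina3n was at 6.32 and 8.34 TPM in dKO and 3.65 and 3.81 TPM in WT cells at 0 min, and at 6.79 and 6.94 TPM in dKO and 5.42 and 3.44 TPM in WT cells at 30 min. Its log2 fold changes were 1.04 (SE 0.21) at 0 min and 0.73 (SE 0.21) at 30 min. Serpina3g was at 8.40 and 9.50 TPM in dKO and 7.22 and 8.22 TPM in WT cells at 0 min (log2 fold change 0.64, SE 0.23). Serpina3h was at 0.980 and 1.26 TPM in dKO and 1.04 and 0.871 TPM in WT cells at 0 min, with overlapping values. Serpina3m, too low to test, had 7.9 and 5.0 reads in dKO and 0 reads in both WT libraries at 0 min. The dKO mean was 3.63-fold above the 3 reads that a count of 0 in the group allows. This ratio too covers counting error only and is no firm lower bound. By edgeR 1 member, Serpina3n, was called higher at 0 min, where 3.93% of 15047 genes were and 5.11% were lower, and 0 were called at 30 min, where 3.88% were higher and 5.08% lower. The members were chosen on these comparisons too, so nothing is read from these counts or from those with a library left out. Without WT replicate 1 of each time, the count was 0 at 0 min and 1, Serpina3n, at 30 min.

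Serum for 30 min, a growth stimulus that raises immediate-early genes, was tested on the 3 members with enough reads, and none was called. In WT iDFs Serpina3g was at 7.62 and 9.61 TPM at 30 min and 7.22 and 8.22 TPM at 0 min (log2 fold change 0.54, SE 0.24, edgeR adjusted p = 0.273), Serpina3h at 0.872 and 2.29 TPM at 30 min and 1.04 and 0.871 TPM at 0 min (0.81, SE 0.56, adjusted p = 0.496), and Serpina3n at 5.42 and 3.44 TPM at 30 min and 3.65 and 3.81 TPM at 0 min (0.31, SE 0.22, adjusted p = 0.503). In dKO iDFs the log2 fold changes were 0.31 (SE 0.22), 0.66 (SE 0.53) and 0.01 (SE 0.20) for the same genes in that order, with edgeR adjusted p = 0.472, 0.525 and 0.987. The genotype by serum difference was -0.22 (SE 0.33) for Serpina3g, -0.15 (SE 0.77) for Serpina3h and -0.30 (SE 0.30) for Serpina3n, each with an edgeR adjusted p of 1.0. In CPM Serpina3g did not overlap in WT cells, at 6.45 and 8.34 at 30 min and 5.07 and 5.13 at 0 min, as was so of 25.1% of all genes in the higher direction. No tested member was called in these 3 comparisons by edgeR or DESeq2, and 0 had an unadjusted p below 0.05, where edgeR called 1.95%, 3.28% and 0.0133% of all genes.

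Sex was compared in CAFs and CD8+ T cells, with 2 female and 2 male mice in each genotype. In CAFs Serpina1b was at 19.8 and 38.3 TPM in dKO females, 41.6 and 65.3 TPM in dKO males, 6.67 and 16.7 TPM in WT females and 21.0 and 17.0 TPM in WT males. Females were below males in each genotype, with a female minus male log2 difference of -0.84 (SE 0.31, edgeR adjusted p = 0.182). For Serpina1a it was -0.96 (SE 0.30, edgeR adjusted p = 0.126) and for Serpina1e -1.17 (SE 0.37, edgeR adjusted p = 0.129), while the 7 Serpina3 members had adjusted p-values of 0.726 or more. By edgeR 0 members were called, where 1.91% of all genes were, while DESeq2 called Serpina1a. The 3 Serpina1 members had unadjusted p-values below 0.05, as had 3408 of the 15786 genes.

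In CD8+ T cells Serpina3f was lower in females, at 0.561 and 4.87 TPM in dKO females, 13.1 and 14.3 TPM in dKO males, 7.24 and 8.52 TPM in WT females and 36.03 and 28.1 TPM in WT males. Both females were below both males in each genotype, with a female minus male log2 difference of -2.11 (SE 0.53) that did not pass the adjustment over all genes (edgeR unadjusted p = 0.00362, adjusted p = 0.792). The differences of Serpina3i (-1.96, SE 0.90), Serpina3n (-0.51, SE 1.97) and Serpina3g (-0.48, SE 0.38) had edgeR adjusted p-values of 0.865, 0.983 and 0.877, in that order. By edgeR 0 members were called, where 0.00669% of all genes were, 1 had an unadjusted p below 0.05, as had 865 of the 14944 genes, and DESeq2 called Serpina3f.

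Of the 18 other clade A serpin genes of the cluster, 3 were tested in CAFs, 1 had an unadjusted p below 0.05 and 0 were called by edgeR. Among 21 serpins from other places in the genome, 16 were tested in CAFs, 1 was called higher and 2 lower, with a median log2 fold change of -0.21 against 0.00 over all genes. Serping1, the C1 inhibitor of complement, rose to 1938 to 3164 TPM in dKO CAFs, against 1217 to 1426 TPM in WT CAFs (0.86, SE 0.17, edgeR adjusted p = 0.0178). Serpini1, neuroserpin, was at 1.67 to 25.5 TPM in dKO and 16.6 to 62.9 TPM in WT CAFs (-1.58, SE 0.38, edgeR adjusted p = 0.0448), and Serpinb5, maspin of epithelial cells, was below 1.53 TPM in all CAFs (-1.70, SE 0.29, edgeR adjusted p = 0.0124). Keratinocyte markers summed to 14.6 to 41.0 TPM in dKO CAFs and 42.6 to 78.7 TPM in WT CAFs, and melanocyte markers to 89.2 to 365 TPM in dKO and 401 to 578 TPM in WT CAFs. Their part in the members' values was not tested.

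Among 18 proteases that serpins of these clades are known to inhibit or that act beside them, 10 were tested in CAFs and 1 was called, lower. It was Ctsh, cathepsin H, a cysteine protease of lysosomes, at 151 to 195 TPM in dKO CAFs and 301 to 364 TPM in WT CAFs (log2 fold change -1.05, SE 0.13, edgeR adjusted p = 0.0029). Of 21 genes of pathways known to induce acute-phase genes (interleukin 6, oncostatin M, interferon, NF-kB and glucocorticoids), 19 were tested, 2 were called higher and 0 lower, with a median of 0.29. Cebpd, a transcription factor of the acute phase, was at 133 to 265 TPM in dKO and 67.6 to 99.1 TPM in WT CAFs (1.09, SE 0.16, edgeR adjusted p = 0.0062), and Il6 at 543 to 777 TPM in dKO and 176.5 to 445 TPM in WT CAFs (1.00, SE 0.21, edgeR adjusted p = 0.025). Of 19 acute-phase genes 13 were tested and 2 called higher, with a median of 0.48: Steap4, a metalloreductase, at 302 to 402 TPM in dKO and 154 to 240.0 TPM in WT CAFs (0.96, SE 0.16, edgeR adjusted p = 0.0112), and Cp, ceruloplasmin, at 142 to 376 TPM in dKO and 111 to 148 TPM in WT CAFs (0.95, SE 0.18, edgeR adjusted p = 0.0193). In tumours edgeR called 0 genes of these 4 lists, with 10 at an unadjusted p below 0.05, and in CD8+ T cells 0, with 6.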

How the data were processed

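Libraries were 75-base single-end RNA-seq. Per the labels and the study's methods, the authors assigned reads with Salmon 1.2.1 to Gencode M25 transcripts of GRCm38.p6 and deposited, for each library, the estimated count, the TPM and the effective length (in bases) of every transcript. The deposited TPM are scaled by transcript length and library and show levels. CD8+ T cells, tumours, and CAFs with iDFs had 3 different library preparations, the first a low-input kit, so no test between cell types was made. Estimated counts were summed per gene, with gene names from Gencode M21 of the same build, rounded, filtered (filterByExpr, minimum count 10, total 15) and tested with edgeR 4.0.16 (quasi-likelihood, TMM, R 4.3.3), with Benjamini-Hochberg adjustment over all genes tested. A gene was called at an adjusted p of 0.05 and an absolute log2 fold change above 0.75. Tumours were fitted with batch and sex, CAFs and CD8+ T cells with sex, and the 4 iDF groups together. The code was tested on simulated data. Fold changes are dKO over WT, 30 min over 0 min and female over male. CPM are TMM-normalized. The SE of a fold change was derived from the edgeR F statistic and so includes the spread between libraries. Values after ± are SD over libraries. Ratios set against a count of 0 cover counting error only. Replicates were separate mice, except in iDFs, where they were experimental replicates of a line and p-values measure the spread between these only.

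Named genes were all members, called clade A serpins, called neighbours within 1 Mb, and from each list up to 3 called genes by smallest p. The members and lists were chosen with earlier results of these data known. Results were recomputed with DESeq2 1.42.0, no filter, no fold threshold, a length offset, no sex term, leaving out each library, a replicate block and sums over paralogues. Motifs and 31-base words were searched in RefSeq promoters (GRCm38.p6) and Gencode transcripts. Identity was computed on longest transcripts in place of proteins, which were not used here. Some items are not reported here.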

Additional observations from a re-analysis of the deposited data

Results flagged for a closer look

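For each member and group of 4 to 6 libraries, the gap between the highest or lowest TPM and the next was set against the range by Dixon's criterion, and 16 of 58 groups passed it. A group with a single library above 0 always passes. This was so for Serpina1a, Serpina1b, Serpina1e and Serpina3c in WT and Serpina3h in dKO CD8+ T cells. Paralogues in the same libraries are not independent either, so no chance rate is set beside the count. In CAFs, dKO replicate 2 stood above the other dKO libraries for Serpina3n (957 TPM, others 268.5 to 324) and Serpina3m (37.1 TPM, others 10.8 to 13.3), and WT replicate 2 stood below the others for Serpina3c (0.413 TPM, others 0.883 to 0.977).

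In tumours, dKO replicate 3 was highest for Serpina3i (8.41 TPM, other dKO tumours 0.708 to 3.17). WT replicate 6 was highest for Serpina1b (41.6 TPM, others 5.16 to 16.4) and Serpina1e (3.35 TPM, others 0.246 to 1.07), and WT replicate 5 for Serpina3n (620 TPM, others 227 to 324).

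In CD8+ T cells most such values were low. WT replicate 4 was highest for Serpina3n (15.2 TPM, others 0.271 to 1.32), Serpina3m (0.783 TPM), Serpina1b (0.420 TPM), Serpina1a (0.293 TPM), Serpina1e (0.0510 TPM) and Serpina3c (0.0218 TPM). Among the dKO libraries, replicate 1 was highest for Serpina1a (0.707 TPM) and replicate 3 for Serpina1e (0.550 TPM) and Serpina3h (0.328 TPM). WT replicate 4 and dKO replicate 3 had macrophage marker sums of 430 and 642 TPM, the highest of their genotypes.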

How the results depend on the processing

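Of the called members, each kept its direction as a single gene over 13 settings in CAFs, from -3.62 to -3.01 (log2) for Serpina3h, -3.40 to -2.48 for Serpina3i, 1.65 to 2.5 for Serpina3g, 1.05 to 1.45 for Serpina1a, 1.24 to 1.73 for Serpina1b and 1.22 to 1.79 for Serpina1e, and over 14 settings Serpina3n in iDFs at 0 min from 0.82 to 1.23. Sums of Serpina3g with its neighbours in CAFs gave -0.0455 (7 members) and -0.0489 (all Serpina3 paralogues). Sums chosen after seeing the data gave -0.85 with Serpina3h and Serpina3i and -0.33 with Serpina3f as well. DESeq2 called 2 members in tumours, 2 in CD8+ T cells by genotype and 1 by sex, and 1 in CAFs by sex, where edgeR called 0 in each. Without the filter on low counts there were 3 calls in CD8+ T cells by genotype, 1 by sex and 2 in iDFs at 0 min. Without a sex term 3 members were called in CAFs, and without a fold threshold 1 in iDFs at 30 min. Leaving out single libraries gave 0 to 1 calls in CD8+ T cells by genotype (1 without WT replicate 1), 2 to 6 in CAFs, 0 to 1 in iDFs at 0 min (0 without WT replicate 1) and 0 to 1 at 30 min (1 without WT replicate 1), and 0 elsewhere. Where this left 1 iDF library in a group, that library was assumed to vary like the other groups. With a replicate block, which pairs iDF libraries by number, 1 member was called at 0 min and 0 in the other 4 iDF comparisons, as without it. Same-numbered libraries had correlations of replicate differences from 0.0514 to 0.212, not all above 0.1, so the numbers were not taken as pairs. Leaving out CD8+ dKO replicate 3 and WT replicate 4 together, also chosen after seeing the data, gave 0 calls by genotype and 0 by sex. Causes of these changes were not tested. The genotype comparisons had been used to choose the members, so for them these settings describe the processing only. Depth limited Serpina3h, Serpina3m, Serpina3c and the Serpina1 genes in CD8+ T cells and 7 members in iDFs, which had too few reads for the filter. Of these, Serpina3m at 0 min was called without the filter.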

Other observations

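For the 8 members that averaged at least 5 CPM in some group, the genes whose log2(CPM + 0.5) followed each member most closely over all 36 libraries, of 14716 genes compared, were Gda for Serpina3n (Pearson r = 0.975, with Aqp1 at 0.975 and Pros1 at 0.972), Cadm3 for Serpina3m (0.982), Clec1a for Serpina1b (0.967), Wnt6 for Serpina1a (0.946), Mdga2 for Serpina3h (0.934), Icam1 for Serpina3f (0.901), Dgat1 for Serpina3g (0.856) and Wscd1 for Serpina3i (0.833). These points share cell types and libraries, so the values mostly order genes by cell type. Among the members, Serpina3m with Serpina3n (0.982), Serpina1a with Serpina1b (0.961) and Serpina3h with Serpina3i (0.904) had high values, as had Serpina1b with Serpina3m (0.927) and with Serpina3n (0.917), while Serpina3g with Serpina3h had r = -0.43.

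In iDFs, serpins from other places in the genome also differed by genotype. Serpine2, protease nexin, was at 7.20 to 8.77 TPM in dKO and 0.314 to 0.614 TPM in WT cells at 0 min (log2 fold change 4.14, SE 0.32, edgeR adjusted p = 4.108e-05), and Serping1 at 4.89 to 6.67 TPM in dKO and 21.1 to 24.9 TPM in WT cells (-1.91, SE 0.19, edgeR adjusted p = 0.000206). The difference of these effects from those in CAFs was not tested.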
